A study of Arabidopsis thaliana with 18 samples.

Results

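The 6 genes described here act in plant immune signalling (BIK1, CML37, CML42, WRKY53, STZ and PUB24) and were followed in Arabidopsis thaliana roots with and without a beneficial root bacterium. They were chosen by symbol, with earlier results of these data known. A count of calls among them is therefore no test of immune genes as a class. Each was read by 1 probe set on Affymetrix ATH1 arrays. The 6 genes thus stand among 13356 genes that the annotation used here names and 22746 probe sets tested. The loci are AT2G39660 (BIK1), AT5G42380 (CML37), AT4G20780 (CML42), AT4G23810 (WRKY53), AT1G27730 (STZ, also called ZAT10) and AT3G11840 (PUB24). The 18 arrays formed 6 groups of 3. Wild-type Col-0, the mutant myb72-2 in the Col-0 background, and oxMYB72, which carries 35S:FLAG-MYB72 in the myb72-2 background, were each sampled as untreated control and with WCS417. Pseudomonas fluorescens WCS417, now classed as Pseudomonas simiae, was put on the roots at 17 days of age (10 μl per root, optical density 0.01), and roots were taken 2 days later, at 19 days, as were the control roots. All plants grew on medium with 50 μM iron. The 35S promoter is viral and active in most cell types, so in oxMYB72 the tagged protein is not limited to the cells that normally make MYB72, and the line also lacks the native gene product. The series design calls the arrays of a group biological replicates. Nothing in the labels says whether they came from separate days, so a p-value covers only how much these samples scatter.

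Root cells detect microbes with receptor kinases at their surface, which bind fragments such as flagellin or chitin. BIK1 is a cytoplasmic kinase that these receptor complexes phosphorylate and that passes the signal on, among others to the oxidase that makes reactive oxygen. A calcium influx follows, which EF-hand proteins such as the calmodulin-like CML37 and CML42 sense. Transcription factors then change gene expression. WRKY53 binds W-box elements and acts in basal resistance and senescence. STZ is a zinc-finger repressor of transcription that acts in stress responses. PUB24 is a U-box ubiquitin ligase that, with its relatives PUB22 and PUB23, dampens the response to microbial patterns. MYB72 is a root transcription factor needed for the systemic resistance that WCS417 induces in leaves.

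The deposited values are log2 levels from RMA (background correction, quantile normalization and 1 summary value per probe set). Over all probe sets, arrays of the same group had correlations of 0.9913 to 0.9977. For actin, whose 3′ minus 5′ signal tracks RNA integrity, that difference averaged 1.21 in Col-0 control, 1.27 in myb72-2 control and 1.19 in oxMYB72 control roots, and 1.30, 1.33 and 1.33 with WCS417, on the log2 scale. Of 15 root markers only EXPA7, an expansin of root hairs, was named in the annotation. Its group means lay between 8.22 and 9.05. EXPA7 was called higher with WCS417 in myb72-2 (0.51) and oxMYB72 (0.52) and stood at 0.40 in Col-0 (adjusted p = 0.0925). The call in myb72-2 ended without control replicate 2 (0.41) or WCS417 replicates 1 (0.50) or 2 (0.45). That in oxMYB72 ended without control replicate 1 (0.28) or WCS417 replicates 2 (0.48) or 3 (0.51), and with only the arrays compared (adjusted p = 0.0599). Of 20 nuclear photosynthesis genes, which mark green tissue, 3 were named (LHCB4.1, LHCB4.2 and NDHS). Their mean level per array was 7.22 to 7.48 in Col-0 control, 7.27 to 7.36 in myb72-2 control and 6.79 to 7.00 in oxMYB72 control roots, and 5.95 to 6.29 over all WCS417 arrays. All 3 were called lower with WCS417 in each genotype (median differences of -1.14 in Col-0, -1.28 in myb72-2 and -0.65 in oxMYB72). Only the NDHS call in oxMYB72 was lost in any alternative, without oxMYB72 control replicate 1 (-0.45) or WCS417 replicate 2 (-0.43). Beside the results on untreated oxMYB72 roots, LHCB4.1 (-0.44) and LHCB4.2 (-0.55) were lower there than in myb72-2, and LHCB4.1 (-0.45) and NDHS (-0.79) were lower than in Col-0. These LHCB4.1 calls ended without any of the 3 oxMYB72 control arrays (-0.49 to -0.37 against myb72-2, -0.50 to -0.38 against Col-0). They also ended without any of the myb72-2 control arrays (-0.50 to -0.38) or Col-0 control replicates 2 (-0.50) or 3 (-0.34), and under both other scalings. The LHCB4.2 call against myb72-2 ended without myb72-2 control replicate 1 (-0.49) or oxMYB72 control replicates 2 (-0.53) or 3 (-0.49). The NDHS call against Col-0 in control roots held in all 12 alternatives. Of the 3 genes, only NDHS had a WCS417 effect called different between oxMYB72 and Col-0 (-0.53 against -1.34, a difference of 0.82, adjusted p = 0.0286). That call ended without replicate 2 of Col-0 control (0.72), Col-0 WCS417 (0.84) or oxMYB72 control (0.72), or replicate 3 of Col-0 WCS417 (0.73) or oxMYB72 WCS417 (0.71). RMA gives no value of 0, so absence cannot be read from any of these probe sets. The part of RNA quality and of green tissue in the results below was not tested. No probe set was named MYB72, so the genotypes were not checked against it.

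**Figure D1:**
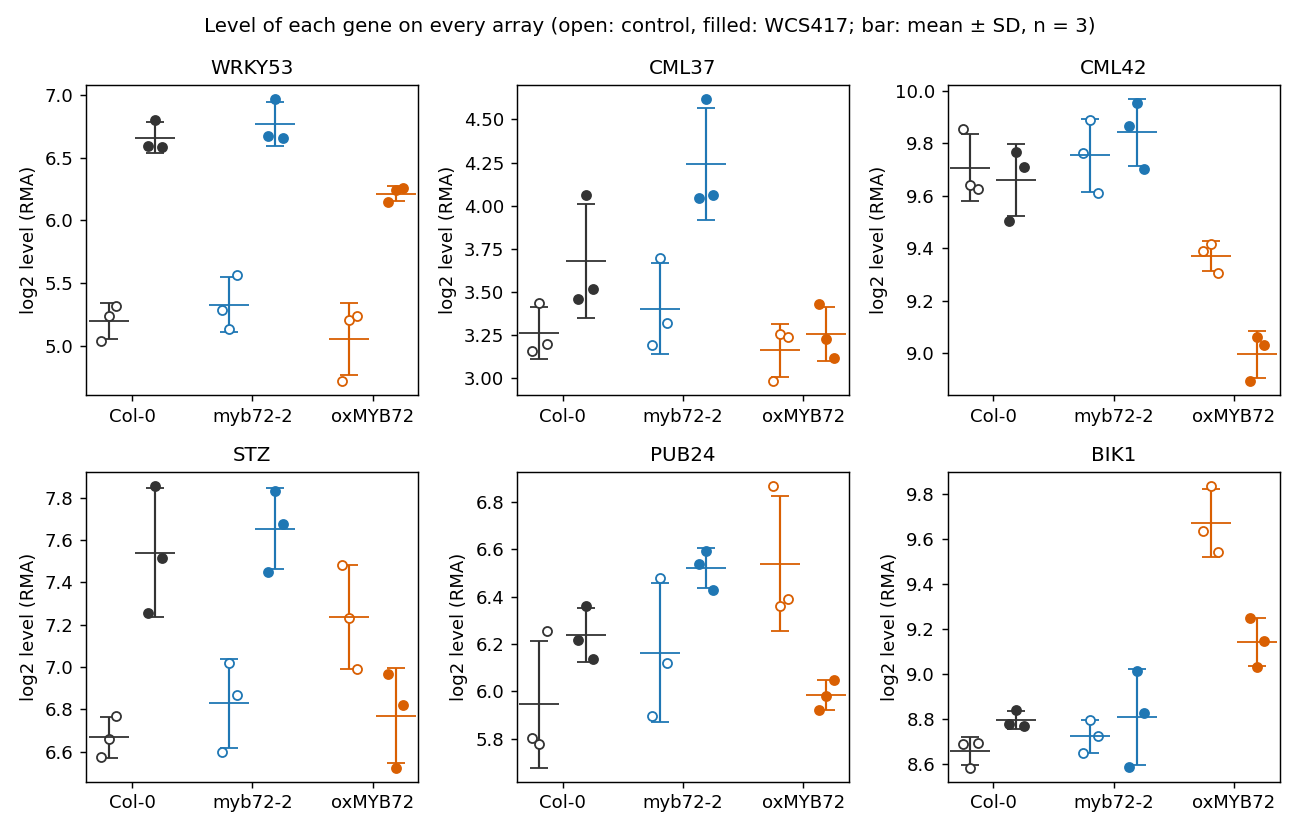
Level of each of the 6 genes on every array, on the log2 scale of the deposited RMA values. Open circles are control arrays, filled circles are WCS417 arrays, and horizontal bars with whiskers are the group mean ± SD (n = 3). WRKY53 was higher with WCS417 in each genotype, whereas BIK1 was highest in oxMYB72 control roots.

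BIK1, the receptor-associated kinase, was higher in untreated oxMYB72 than in the other untreated roots, and it fell with WCS417 in oxMYB72. In control roots its log2 level was 8.69, 8.58 and 8.70 in Col-0, 8.65, 8.80 and 8.73 in myb72-2, and 9.63, 9.84 and 9.54 in oxMYB72. Every oxMYB72 control array thus lay above every other array of the series. The difference was 0.95 ± 0.11 (SE; 1.93-fold) against myb72-2 and 1.01 ± 0.11 (2.02-fold) against Col-0, with adjusted p = 3.45e-06 and 1.22e-06 in limma. With WCS417 the arrays stood at 8.78, 8.84 and 8.77 in Col-0, at 8.59, 9.01 and 8.83 in myb72-2, and at 9.25, 9.03 and 9.15 in oxMYB72. WCS417 therefore went with a fall in oxMYB72 by 0.53 ± 0.11 (adjusted p = 0.00147). In the other genotypes the differences of 0.14 in Col-0 (95% interval -0.09 to 0.37) and 0.09 in myb72-2 (-0.14 to 0.31) did not pass the test. Treated oxMYB72 roots still lay above treated myb72-2 (0.33) and Col-0 (0.35) roots in every array, but these differences missed the threshold (adjusted p = 0.0872 and 0.0865). The first of them passed without myb72-2 WCS417 replicate 2, the array at 9.01 (0.44, adjusted p = 0.0256). In bulk roots, more cells that use a gene and more RNA of it per cell cannot be told apart.

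The calcium sensors CML37 and CML42 were both lower in treated oxMYB72 than in treated myb72-2 roots. CML37 acts in jasmonate-dependent defence against herbivores as a positive regulator. Its level was 3.16, 3.43 and 3.20 in Col-0 control arrays, and 3.46, 4.06 and 3.52 with WCS417. In myb72-2 it was 3.19, 3.70 and 3.32 without and 4.05, 4.62 and 4.06 with the bacterium, and in oxMYB72 2.98, 3.26 and 3.24 without and 3.43, 3.23 and 3.12 with it. The groups did not overlap in Col-0 or myb72-2 and overlapped in oxMYB72. Only the rise in myb72-2 passed the test (0.84 ± 0.17, 1.79-fold, adjusted p = 0.00105), while the differences of 0.42 ± 0.17 in Col-0 (adjusted p = 0.111) and 0.10 ± 0.17 in oxMYB72 (adjusted p = 0.767) did not. The effects in myb72-2 and Col-0 did not differ by the test of the difference (95% interval -0.08 to 0.92). Treated oxMYB72 roots had less CML37 than treated myb72-2 roots by -0.99 ± 0.17 (adjusted p = 0.000606). Against treated Col-0 roots the difference of -0.42 ± 0.17 missed the threshold (adjusted p = 0.228 in limma). CML37 was dim throughout: on each array its value exceeded only between 3.05% and 32.1% of probe sets, where RMA compresses differences.

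CML42, which restrains the same jasmonate defences and shapes leaf hairs, was bright and steady in Col-0 and myb72-2. Its arrays there lay between 9.50 and 9.96 with and without WCS417, with group means of 9.71 and 9.66 in Col-0 and 9.75 and 9.84 in myb72-2. In oxMYB72 it stood at 9.39, 9.41 and 9.31 in control and at 8.90, 9.06 and 9.03 in treated roots. All 6 oxMYB72 arrays lay below all 12 others, and the treated ones lay lowest. With WCS417 the difference from myb72-2 was -0.85 ± 0.11 (adjusted p = 1.27e-05) and that from Col-0 -0.66 ± 0.11 (adjusted p = 0.000344). The fall with WCS417 within oxMYB72 was -0.37 ± 0.11 (adjusted p = 0.0166). That call ended without oxMYB72 control replicates 1 (-0.36) or 2 (-0.35) or WCS417 replicate 1 (-0.32). In control roots oxMYB72 was below myb72-2 by -0.38 ± 0.11 (adjusted p = 0.0307), a call that ended under median centring (-0.33), without any of the oxMYB72 control arrays (-0.41 to -0.35) and without myb72-2 control replicates 1 (-0.38) or 2 (-0.32). Against Col-0 control roots the difference of -0.34 missed the threshold (adjusted p = 0.0595), and it passed under a variance trend with robust moderation, without the 30% dimmest probe sets, and with only the arrays compared.

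WRKY53 rose with WCS417 in all 3 genotypes, the one of the 6 genes that did. In Col-0 it went from 5.04, 5.24 and 5.31 to 6.59, 6.80 and 6.58, in myb72-2 from 5.28, 5.14 and 5.57 to 6.67, 6.97 and 6.66, and in oxMYB72 from 4.72, 5.20 and 5.24 to 6.14, 6.24 and 6.26. Every treated array of the series lay above every control array. The rises were 1.46 ± 0.14 (2.76-fold, adjusted p = 1.14e-07), 1.43 ± 0.14 (2.70-fold, adjusted p = 1.35e-07) and 1.16 ± 0.14 (2.23-fold, adjusted p = 3.66e-06), and none lost its call under any alternative run. The effects did not differ between genotypes by the test of the difference, with intervals of -0.43 to 0.38 for myb72-2 minus Col-0 and -0.71 to 0.10 for oxMYB72 minus Col-0. Among treated roots the 3 oxMYB72 arrays lay below the 6 others. The difference from myb72-2 was -0.55 ± 0.14 (adjusted p = 0.0173), and that from Col-0 was -0.45 ± 0.14 (adjusted p = 0.0786). The first call ended without myb72-2 WCS417 replicate 2 (-0.45), without oxMYB72 WCS417 replicate 1 (-0.52) and with only the arrays compared (adjusted p = 0.0511).

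STZ, the zinc-finger repressor, changed in opposite directions with WCS417. It stood at 6.57, 6.66 and 6.77 in Col-0 control arrays and at 7.25, 7.86 and 7.51 with WCS417, and in myb72-2 at 6.60, 7.02 and 6.87 without and 7.45, 7.83 and 7.68 with it. In oxMYB72 the control arrays were at 7.48, 7.23 and 6.99 and the treated ones at 6.97, 6.52 and 6.82. No treated array overlapped its own controls, but in oxMYB72 the gap was only that between 6.99 and 6.97. STZ rose by 0.87 ± 0.16 in Col-0 (1.83-fold, adjusted p = 0.000428) and by 0.83 ± 0.16 in myb72-2 (1.77-fold, adjusted p = 0.000613), and fell by 0.46 ± 0.16 in oxMYB72 (adjusted p = 0.0433). The fall lost its call without oxMYB72 control replicates 1 (-0.34) or 2 (-0.47), without oxMYB72 WCS417 replicates 2 (-0.34) or 3 (-0.49), and with only the arrays compared (adjusted p = 0.0525). The difference between the effects kept its call more widely: oxMYB72 minus Col-0 was -1.34 ± 0.22 (adjusted p = 0.00101) and oxMYB72 minus myb72-2 was -1.29 ± 0.22 (adjusted p = 0.00136), and both held under every alternative run. Untreated oxMYB72 roots had more STZ than Col-0 roots by 0.57 ± 0.16 (1.48-fold, adjusted p = 0.0288), a call lost without Col-0 control replicates 1 (0.52) or 2 (0.57) or oxMYB72 control replicates 1 (0.44) or 2 (0.57). Against myb72-2 the difference of 0.41 missed the threshold (adjusted p = 0.155). Treated oxMYB72 roots had less STZ than treated myb72-2 (-0.88 ± 0.16, adjusted p = 0.00089) and Col-0 roots (-0.77 ± 0.16, adjusted p = 0.00421).

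PUB24, the ubiquitin ligase, had differences of the same sign as STZ with WCS417, of which only that in oxMYB72 passed the test. Its level was 5.80, 5.78 and 6.25 in Col-0 control and 6.21, 6.36 and 6.14 in treated arrays, and 5.90, 6.48 and 6.12 against 6.54, 6.59 and 6.43 in myb72-2. In oxMYB72 it went from 6.87, 6.36 and 6.39 to 5.92, 5.98 and 6.05. The groups overlapped in Col-0 and myb72-2 and were apart in oxMYB72. It fell by 0.56 ± 0.15 in oxMYB72 (1.47-fold lower, adjusted p = 0.0124), whereas the differences of 0.29 ± 0.15 in Col-0 (adjusted p = 0.234) and 0.36 ± 0.15 in myb72-2 (adjusted p = 0.103) did not pass. The fall lost its call without oxMYB72 control replicate 1, the array at 6.87 (-0.39), and the difference in myb72-2 passed without the high control replicate 2 (0.51, adjusted p = 0.0285). Untreated oxMYB72 roots had more PUB24 than Col-0 roots (0.59 ± 0.15, adjusted p = 0.0169), except without oxMYB72 control replicate 1 (0.43) or Col-0 control replicates 1 (0.52) or 2 (0.51), when the call ended. Treated oxMYB72 roots had less than treated myb72-2 roots (-0.54 ± 0.15, adjusted p = 0.0394). That call ended without myb72-2 WCS417 replicates 1 (-0.53) or 2 (-0.50) or any of the 3 oxMYB72 WCS417 arrays (-0.57 to -0.51). The differences of untreated oxMYB72 from myb72-2 (0.38, adjusted p = 0.182) and of treated oxMYB72 from Col-0 (-0.25, adjusted p = 0.508) missed the threshold in limma.

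**Figure D2:**
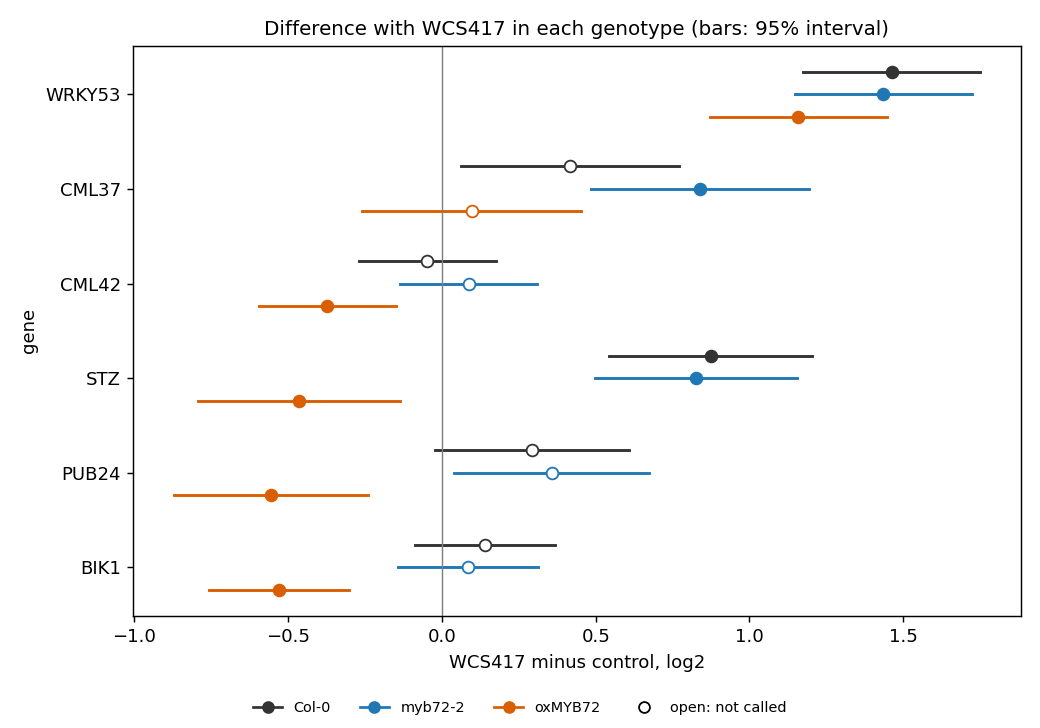
Difference between WCS417 and control roots in each genotype (horizontal axis, log2) for the 6 genes, with 95% intervals from limma. Filled points passed an adjusted p of 0.05 and open points did not. WRKY53 lies to the right in all 3 genotypes, while STZ lies to the right in Col-0 and myb72-2 and to the left in oxMYB72.

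Counted over the 6 genes, WCS417 raised WRKY53 and STZ in Col-0, where 15.3% of all probe sets were called (6.38% higher, 8.96% lower). It raised WRKY53, STZ and CML37 in myb72-2, where 21.4% were called (8.52% higher, 12.9% lower). In oxMYB72 5 of the 6 were called against 19.3% of all probe sets. Of these, WRKY53 rose (10.2% of probe sets were called higher) and CML42, STZ, PUB24 and BIK1 fell (9.09% were called lower). The median difference over the 6 genes was 0.36 in Col-0, 0.59 in myb72-2 and -0.42 in oxMYB72, beside 0.00091, -0.0019 and 0.03 over all probe sets. Between these control and treated groups, 4, 3 and 5 of the 6 genes had arrays that did not overlap, where 32%, 33.2% and 35.1% of all probe sets did not. Because the 6 genes were chosen with earlier results of these data known, the shares are a background and not a test.

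The question of what loss of MYB72 does was put to myb72-2 and Col-0. No difference of the 6 genes passed the test without WCS417 (0.0396% of probe sets called, 0.0044% higher and 0.0352% lower), with WCS417 (0.127%, of which 0.0176% higher and 0.11% lower) or in the WCS417 effect itself (0.0176%). At an unadjusted p under 0.05 in limma the counts were 0, 1 and 0, and the 1 was CML37 with WCS417 (0.56 ± 0.17, adjusted p = 0.361). In control roots 0 of the 6 genes had arrays that did not overlap (11.3% of probe sets), and with WCS417 only PUB24 did (8.69%). In control roots the 6 differences ran from 0.05 (CML42) to 0.22 (PUB24). Their 95% intervals all included 0, and the highest upper bounds were 0.54 for PUB24 and 0.50 for CML37.

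**Figure D3:**
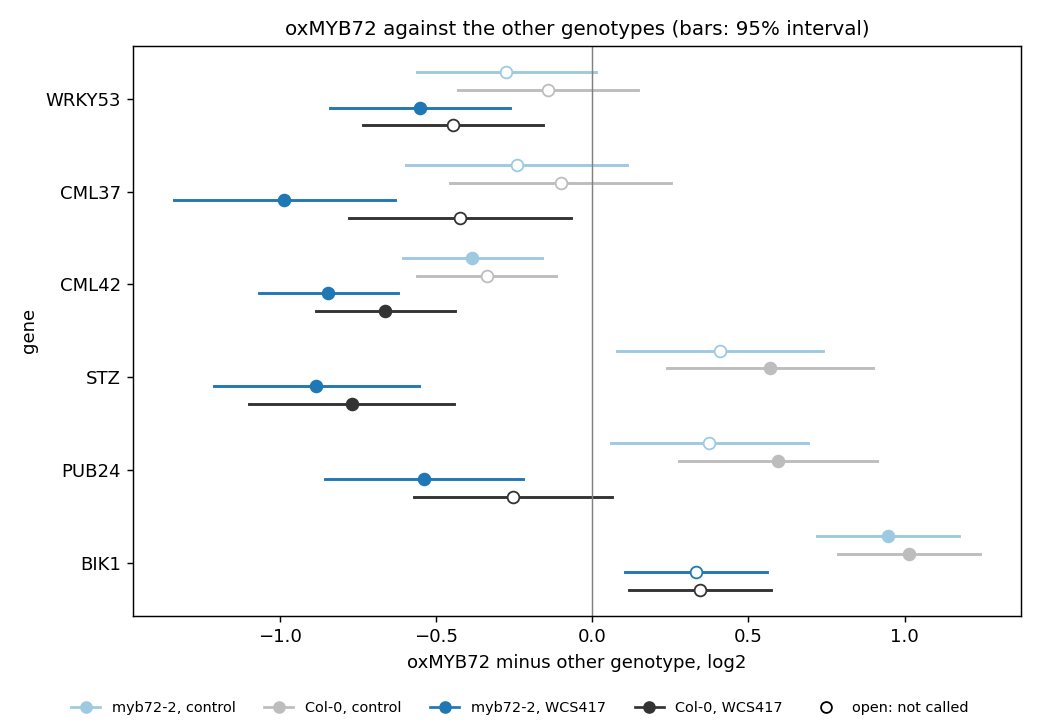
Difference between oxMYB72 and each other genotype (horizontal axis, log2), in control roots (pale) and in WCS417 roots (dark), for the 6 genes, with 95% intervals from limma. Filled points passed an adjusted p of 0.05. BIK1 lies to the right throughout, STZ and PUB24 move from right to left with WCS417, and CML42 lies to the left throughout.

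The oxMYB72 line differed from both other genotypes. In control roots BIK1 was higher and CML42 lower than in myb72-2 (6.81% of probe sets called, 3.53% higher and 3.27% lower), and BIK1, STZ and PUB24 were higher than in Col-0 (7.41% called, 3.83% higher and 3.58% lower). Arrays of 2 of the 6 genes did not overlap with myb72-2 (26.7% of probe sets), and those of 4, CML42 being the other, did not with Col-0 (26.9%). With WCS417, 5 of the 6 genes, all but BIK1, were lower in oxMYB72 than in myb72-2, where 5.52% of probe sets were called, 2.86% higher and 2.66% lower. Against treated Col-0 roots CML42 and STZ were lower (4.26% called, 2.02% higher and 2.24% lower). In both comparisons of treated roots all 6 genes had arrays that did not overlap between the groups, beside 16.2% of probe sets against myb72-2 and 17.6% against Col-0. These comparisons share the oxMYB72 arrays, so they do not count as separate evidence. The choice of the 6 genes with earlier results known bears on these counts as well.

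The WCS417 effect itself differed between oxMYB72 and the other genotypes in 3 of the 6 genes, STZ, PUB24 and BIK1, each with a lower effect in oxMYB72. Of all probe sets, 1.75% were called against Col-0 (0.347% higher, 1.40% lower) and 2.78% against myb72-2 (0.928% higher, 1.86% lower). For PUB24 the differences were -0.85 ± 0.22 against Col-0 (adjusted p = 0.0452) and -0.91 ± 0.22 against myb72-2 (adjusted p = 0.0201). The first ended without any 1 of 9 of the 12 arrays: Col-0 control replicates 1 (-0.78) and 2 (-0.77), the 3 Col-0 WCS417 arrays (-0.90 to -0.79), oxMYB72 control replicate 1 (-0.68) and the 3 oxMYB72 WCS417 arrays (-0.88 to -0.82). The second ended without myb72-2 control replicates 1 (-0.78) or 3 (-0.89) or oxMYB72 control replicate 1 (-0.75). For BIK1 they were -0.67 ± 0.15 against Col-0 (adjusted p = 0.0232) and -0.61 ± 0.15 against myb72-2 (adjusted p = 0.0309). The BIK1 call against Col-0 ended without replicate 2 of Col-0 control (-0.63), Col-0 WCS417 (-0.65), oxMYB72 control (-0.59) or oxMYB72 WCS417 (-0.61). That against myb72-2 ended without 8 of its 12 arrays (-0.63 to -0.51), namely replicates 1 and 3 of myb72-2 control, 2 and 3 of myb72-2 WCS417, 1 and 2 of oxMYB72 control, and 2 and 3 of oxMYB72 WCS417, and with only the arrays compared (adjusted p = 0.0922). CML37 (-0.74 ± 0.24, adjusted p = 0.133) and CML42 (-0.46 ± 0.15, adjusted p = 0.14) also had lower estimates in oxMYB72 than in myb72-2, without passing the test. The oxMYB72 control arrays enter both the untreated comparison and the effect, so a high control level in STZ, PUB24 and BIK1 shows in each.

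**Figure D4:**
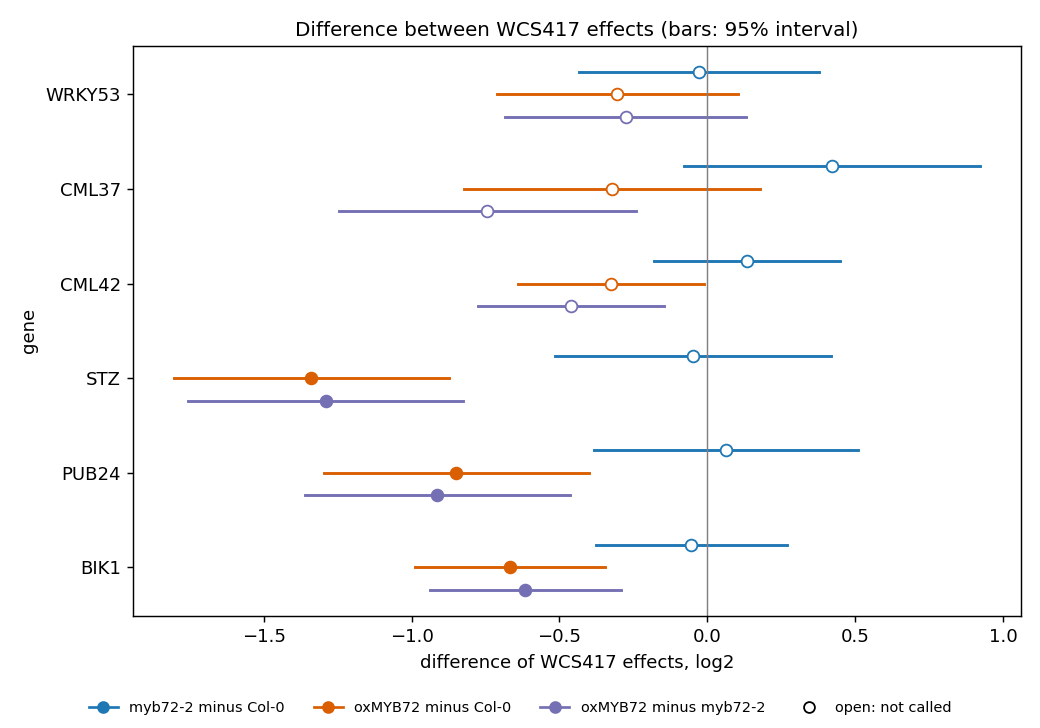
Differences between the WCS417 effects of pairs of genotypes (horizontal axis, log2) for the 6 genes, with 95% intervals from limma. Filled points passed an adjusted p of 0.05. STZ, PUB24 and BIK1 lie to the left of 0 in both comparisons with oxMYB72, and the 6 intervals for myb72-2 minus Col-0 all include 0.

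Ordered by level, the 6 genes had different profiles over the groups. WRKY53 ran from treated myb72-2 (6.76) over treated Col-0 (6.66) and treated oxMYB72 (6.21) to the 3 control groups (5.33 to 5.05). Treated oxMYB72 was apart from both neighbours, and the 3 control groups overlapped. CML37 had overlapping neighbours at every step from treated myb72-2 (4.24) down to oxMYB72 control (3.16). CML42 had gaps only above and below oxMYB72 control (9.37). STZ overlapped at each step between treated myb72-2 (7.65) and Col-0 control (6.67), and PUB24 at each step but that between treated myb72-2 (6.52) and treated Col-0 (6.24). BIK1 had gaps above and below treated oxMYB72 (9.14), and each of the 4 groups of Col-0 and myb72-2 overlapped the next, although Col-0 with WCS417 did not overlap Col-0 control. With group means removed, the correlations between the 6 genes over the 18 arrays differed from pair to pair. They ran from -0.25 for WRKY53 with PUB24 to 0.62 for STZ with BIK1. STZ with PUB24 stood at 0.59, STZ with CML37 at 0.57 and CML37 with BIK1 at 0.54. Other pairs had low values, such as -0.03 for WRKY53 with STZ and 0.17 for PUB24 with BIK1. Each array reads all genes from the same sample, so shared plants and shared processing cannot be told apart in these values. Their source was not tested, and no other gene pairs were taken as a background.

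Other genes of the pathway, taken from lists, were thinly named in the annotation: 29 were measured, beside 147 list entries, and these 29 include further family members found by symbol. Of the 29, 5 were higher and 1 lower with WCS417 in Col-0, 6 and 1 in myb72-2, and 4 and 1 in oxMYB72, beside 15.3%, 21.4% and 19.3% of all probe sets called. Their differences had medians of -0.02, -0.0043 and 0.03. None of the MAP kinase entries, nor of the lists of early pattern-response targets and rapid stress genes, was named. The salicylic acid list had 1 measured gene, SAG101, which was called lower in untreated oxMYB72 than in Col-0 roots (-0.45). That call was lost in 9 of 12 alternatives. The jasmonate and ethylene list had 1 measured gene, PDF1.2A, which was not called in any comparison. PDF1.2A was dim (group means of 4.11 to 4.45), so the lack of a call says little there. The 3 measured surface receptors, EFR, SD1-29 and FER, were not called in any genotype with WCS417, with differences from -0.16 to 0.17. EFR (group means of 3.39 to 3.48) and SD1-29 (4.31 to 4.49) were dim, so the lack of a call says little for them. The 3 measured cytoplasmic kinases beside BIK1, namely PBL27 (dim, group means 4.19 to 4.54), AT3G09830 and AT5G03320, were not called in any comparison. In untreated oxMYB72 against Col-0 roots they stood at 0.12, 0.17 and 0.14, beside 1.01 for BIK1. With WCS417 in oxMYB72 they differed by -0.30, -0.23 and 0.03, beside -0.53 for BIK1.

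**Figure D5:**
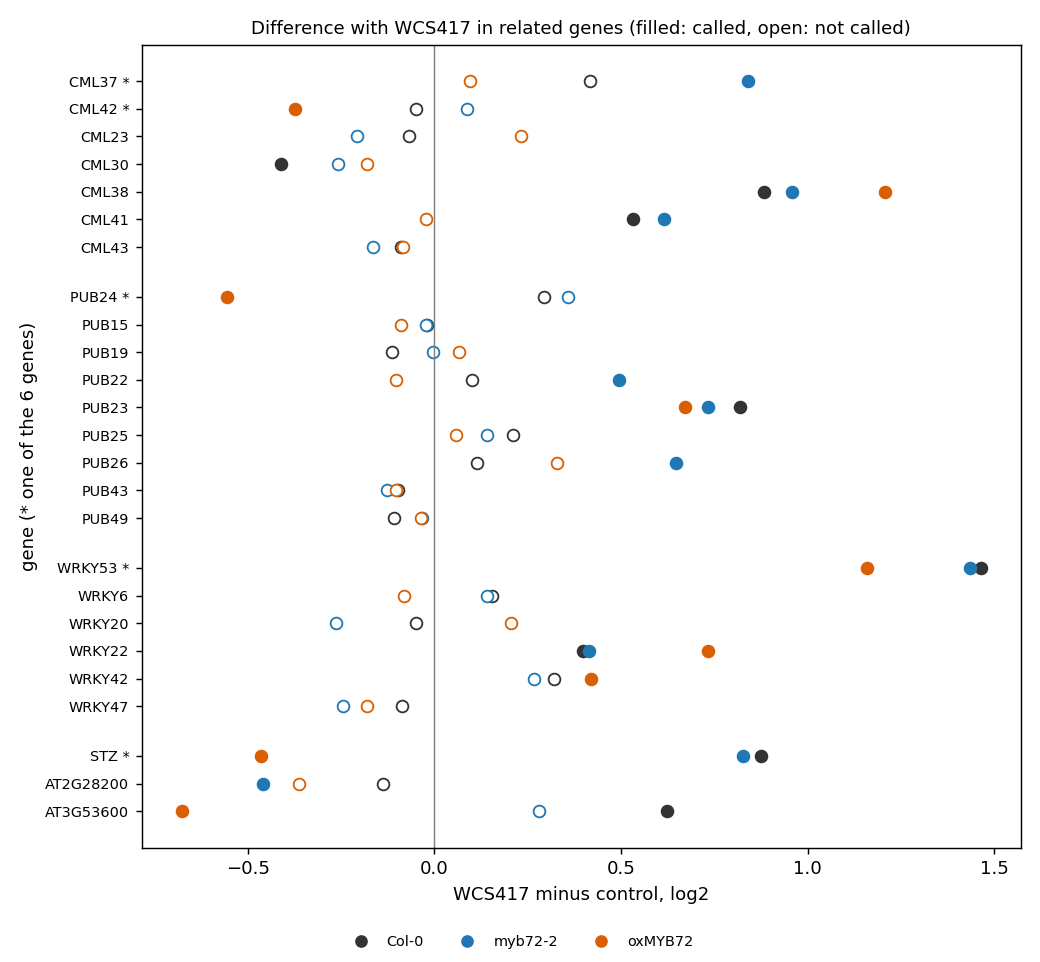
Difference between WCS417 and control roots (horizontal axis, log2) for the calmodulin-like, U-box, WRKY and zinc-finger genes named in the annotation, in each genotype (colours). Filled points passed an adjusted p of 0.05, and asterisks mark 5 of the 6 genes described. CML38 and PUB23 lie to the right in all 3 genotypes, and AT3G53600 lies to the right in Col-0 and to the left in oxMYB72, as STZ does.

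Among the relatives of the calcium sensors, CML38, a calmodulin-like protein close to CML37, rose in every genotype, by 0.88 ± 0.16 in Col-0, 0.96 ± 0.16 in myb72-2 and 1.21 ± 0.16 in oxMYB72 (adjusted p = 0.000572, 0.000209 and 2e-05). CML41 rose by 0.53 ± 0.14 in Col-0 and 0.61 ± 0.14 in myb72-2, with -0.02 in oxMYB72, and the difference between effects was not called (adjusted p = 0.281 and 0.116). The CML41 call in Col-0 ended without Col-0 WCS417 replicates 2 (0.47) or 3 (0.44). CML30 fell in Col-0 (-0.41), except without Col-0 control replicate 2 (-0.37) or WCS417 replicate 1 (-0.35), and CML23 was higher in treated oxMYB72 than in treated myb72-2 (0.71 ± 0.12) and Col-0 roots (0.61 ± 0.12).

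PUB23, which acts with PUB24, rose by 0.82 ± 0.13 in Col-0, 0.73 ± 0.13 in myb72-2 and 0.67 ± 0.13 in oxMYB72 (adjusted p = 9.14e-05, 0.00026 and 0.000762). Its effect in oxMYB72 differed from that in Col-0 by -0.15 ± 0.18 (adjusted p = 0.941), beside -0.85 for PUB24. The third relative, PUB22, rose in myb72-2 by 0.49 ± 0.13 (adjusted p = 0.00976), and stood at 0.10 in Col-0 and -0.10 in oxMYB72. PUB26 rose in myb72-2 (0.65 ± 0.20), a call that ended without myb72-2 control replicates 1 (0.55) or 3 (0.62), WCS417 replicate 2 (0.35), or with only the arrays compared (adjusted p = 0.0735). Of the 8 U-box genes beside PUB24, 1, 3 and 1 were called higher in Col-0, myb72-2 and oxMYB72, and none was called lower. Of all probe sets, 6.38%, 8.52% and 10.2% were called higher and 8.96%, 12.9% and 9.09% lower.

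Of the 5 other WRKY genes, WRKY22, which acts downstream of flagellin sensing, rose by 0.40 ± 0.12 in Col-0, 0.41 ± 0.12 in myb72-2 and 0.73 ± 0.12 in oxMYB72 (adjusted p = 0.0265, 0.0162 and 0.000153). In Col-0 the call was lost on leaving out control replicate 2 (0.35) or 3 (0.40) or 1 of the WCS417 arrays (0.37 to 0.42), and that in myb72-2 without control replicate 3 (0.39) or WCS417 replicates 1 (0.36) or 2 (0.36). WRKY42 rose in oxMYB72 (0.42 ± 0.12), except without oxMYB72 control replicate 2 (0.40) or WCS417 replicate 1 (0.33). It was among the 30% dimmest probe sets, as was AT3G53600, and RMA compresses differences there. AT3G53600, of the zinc-finger list, went from 3.70 ± 0.15 to 4.33 ± 0.35 in Col-0, from 3.81 ± 0.09 to 4.09 ± 0.20 in myb72-2, and from 4.80 ± 0.27 to 4.12 ± 0.13 in oxMYB72 (SD, n = 3). Its rise in Col-0 (0.62 ± 0.16, lost without Col-0 WCS417 replicate 2 at 0.42), its fall in oxMYB72 (-0.68 ± 0.16) and its higher level in untreated oxMYB72 against myb72-2 (0.99 ± 0.16) and Col-0 (1.09 ± 0.16) were called. Its WCS417 effect in oxMYB72 was lower than in Col-0 by -1.30 ± 0.22 (adjusted p = 0.00123) and than in myb72-2 by -0.96 ± 0.22 (adjusted p = 0.0174), the latter not without myb72-2 control replicate 3 (-0.90), oxMYB72 control replicates 2 or 3 (both -0.88) or oxMYB72 WCS417 replicate 2 (-0.90). AT2G28200, the other measured gene of that list, fell in myb72-2 (-0.46 ± 0.14), except without myb72-2 control replicates 1 (-0.34) or 3 (-0.46), WCS417 replicate 2 (-0.32), or with only the arrays compared.

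The genes most like each of the 6 over the 18 arrays were found by Pearson's correlation among 13507 probe sets of 1 named gene. The correlation is given as a description because the arrays fall into the same 6 groups for every gene. As these genes were picked by it, a likeness of their differences to those of the matched gene follows from the choice. WRKY53 was closest to AT2G23910 (0.97), TAAC (0.97) and AT3G50900 (0.96), which with WCS417 differed by 1.95, 1.06 and 1.35 in Col-0 and by 1.41, 0.65 and 0.69 in oxMYB72. STZ was closest to AT3G16530 (0.95), AT2G07180 (0.95) and AR781 (0.93), with differences of 1.84, 0.44 and 1.06 in Col-0 and of -0.89, -0.32 and -0.81 in oxMYB72. BIK1 was closest to AT3G17410 (0.97), AT4G15120 (0.96) and AT1G47480 (0.95), which stood higher in untreated oxMYB72 than in myb72-2 by 1.01, 1.29 and 1.04. CML37 was closest to AT2G37810 (0.91), AT1G44740 (0.87) and AT5G37490 (0.87), and CML42 to AT2G34080 (0.90), AT2G36690 (0.89) and AT4G24130 (0.88). PUB24 had the lowest such values, with AT2G26190 (0.82), ATSIK (0.81) and AT1G76700 (0.81).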

How the data were processed

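The authors deposited log2 expression values made with RMA, per the submitters' processing notes (version not given in the sources used here). The log2 scale was taken from RMA and from the range of 2.42 to 14.63. The arrays' medians lay between 6.29 and 6.42. RMA hides a change shared by most genes. Precision is limited by the number of arrays. From 22810 probe sets, 64 controls were left out. The platform annotation named 1 gene for 13513 probe sets, several for 503 and none for 8730. Symbols were updated through gene identifiers in a RefSeq table of TAIR10.1, where 13436 matched, and a list entry was measured by its brightest probe set.

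All 12 comparisons came from 1 linear model of group means over 18 arrays (limma 3.58.1 with eBayes, run in R 4.3.3). Tests were two-sided, and p-values were adjusted by Benjamini-Hochberg over the 22746 probe sets. A gene was called at an adjusted p under 0.05. Errors after ± are standard errors unless given as SD. The model was tested on simulated data. The 6 genes, the lists and the rules were chosen with earlier results of these data known. The rules named, per list and comparison, up to 3 called genes in each direction, and per gene the 3 most correlated probe sets of other genes. The alternatives left out each array in turn, blocked on the replicate number, fitted only the arrays compared, dropped the 30% dimmest probe sets, used robust moderation with a variance trend, centred arrays on their medians, or repeated the quantile step. Same-numbered arrays were checked for shared deviations. Figures were drawn with matplotlib 3.10.9 (Python 3.11.15).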

Additional observations from a re-analysis of the deposited data

Results flagged for a closer look

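The effect of WCS417 differed between genotypes by the test of the difference in 3 of the 6 genes, each time with oxMYB72 on the lower side, where 1.75% of all probe sets were called against Col-0 and 2.78% against myb72-2. For STZ the difference of effects was -1.34 against Col-0 and -1.29 against myb72-2. For PUB24 it was -0.85 against Col-0 and -0.91 against myb72-2. For BIK1 it was -0.67 against Col-0 and -0.61 against myb72-2. Only the STZ differences kept their call in all 18 alternatives. The PUB24 call was lost in 10 of 18 against Col-0 and 3 of 18 against myb72-2, and the BIK1 call in 4 and 9 of 18. Mean actin 3′ minus 5′ differences without and with WCS417 were 1.19 and 1.33 in oxMYB72. They were 1.21 and 1.30 in Col-0 and 1.27 and 1.33 in myb72-2. For GAPDH they were -0.20 and -0.05 in oxMYB72, -0.19 and -0.03 in Col-0, and -0.11 and -0.08 in myb72-2. For ubiquitin they were -0.27 and -0.26 in oxMYB72, -0.25 and -0.29 in Col-0, and -0.18 and -0.30 in myb72-2. Of the 3 green-tissue genes, NDHS alone had a called difference of effects between oxMYB72 and Col-0 (0.82), lost in 5 of 18 alternatives. None of the 3 had a called difference of effects between oxMYB72 and myb72-2. The part of RNA quality and of green tissue in these results was not tested.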

How the results depend on the processing

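Of 370 values of the 28 called differences of the 6 genes under the alternatives, 313 kept direction and call, 57 lost the call and 0 changed sign. Of 590 values of the 44 other differences, 8 gained a call and 20, all with an array left out, changed sign while uncalled. Of 503 values of called related and marker genes, 69 lost the call. The count of genes called fell with single arrays left out. It ranged from 2 to 5 for the WCS417 effect in oxMYB72 (lowest without oxMYB72 control replicate 1), 1 to 2 for oxMYB72 against myb72-2 and 1 to 3 against Col-0 in control roots, and 3 to 5 for oxMYB72 against myb72-2 with WCS417. For the difference of effects it was 1 to 3 for oxMYB72 against either genotype. Median centring gave 1 for oxMYB72 against myb72-2 in control roots, where it ended the call of CML42. The other counts stayed within 1.5 times.

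The 20 sign changes fell on near-zero differences, whose ranges with an array left out follow. The WCS417 effect ran from -0.10 to 0.030 for CML42 in Col-0 and from -0.016 to 0.20 for BIK1 in myb72-2. Between myb72-2 and Col-0 without bacteria, CML37 ran from -0.0053 to 0.25 and CML42 from -0.021 to 0.12, and with WCS417 STZ ran from -0.032 to 0.27 and BIK1 from -0.089 to 0.12. The difference of their effects ran from -0.13 to 0.091 for WRKY53, -0.19 to 0.11 for STZ, -0.090 to 0.22 for PUB24 and -0.16 to 0.057 for BIK1. WRKY53 in oxMYB72 against Col-0 control roots ran from -0.23 to 0.025. Over all probe sets, 45 in place of 29 were called between treated myb72-2 and Col-0 under a variance trend, and without the dimmest probe sets 6 in place of 9 in control roots and 2 in place of 4 for the difference of effects.

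Over all probe sets, same-numbered arrays did not deviate together throughout. Their correlations lay between -0.30 and 0.26, and in no comparison were all 3 above 0.1. CML37, however, was highest in replicate 2 in every group but treated oxMYB72, with 4.06 in treated Col-0 and 4.62 in treated myb72-2. All 3 numbers matched best only between the myb72-2 and Col-0 controls (0.09 to 0.14). With the replicate block the counts were 3 in Col-0, 3 in myb72-2 and 5 in oxMYB72 for the WCS417 effect, 2 and 3 for oxMYB72 against myb72-2 and Col-0 in control roots, 4 and 3 with WCS417, 2 and 4 for its effect against Col-0 and myb72-2, and 0 between myb72-2 and Col-0. It added CML37 in Col-0 (adjusted p = 0.0359), WRKY53 between treated oxMYB72 and Col-0 (0.0498) and the CML37 effect difference from myb72-2 (0.0329), and ended PUB24 between treated oxMYB72 and myb72-2 (0.0544) and its effect difference from Col-0 (0.0664).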
